A study of Mus musculus with 12 samples.

Results

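Receptors for the Fc part of immunoglobulin G (IgG) let a macrophage bind antibody-coated cells, particles and immune complexes. Described here are 7 genes of this system: the activating receptors Fcgr1, Fcgr3 and Fcgr4, their shared signalling chain Fcer1g, the inhibitory receptor Fcgr2b, the heavy chain of the neonatal Fc receptor Fcgrt, and the Fc receptor-like gene Fcrls. They are listed by name, with no measured value in the rule, and are 7 of the 36439 genes counted in each library. Earlier results of these data were known when they were chosen. Gene identifiers were matched to mouse symbols, and all 7 genes passed the filter on low counts in both comparisons.

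RNA sequencing was done on 12 libraries of tumour-associated macrophages (TAMs), in 4 groups of 3, from Lewis lung carcinoma, a mouse tumour line that was implanted subcutaneously in C57BL/6 animals. In the sorted experiment, F4/80+MRC1+ TAMs, which carry the mannose receptor, were set against F4/80+ TAMs that carry the integrin CD11c, with a depth of 15664146 to 17689064 reads in genes for MRC1+ and 10824918 to 17318957 for CD11c+ TAMs. In the overexpression experiment, F4/80+ TAMs overexpressing the microRNA miR-511-3p were set against F4/80+ TAMs overexpressing a mutated miR-511-3p, with 23326219 to 27186233 and 22906418 to 27890433 reads. Both groups of the overexpression experiment are named SFFV in the labels, a viral promoter used in vectors, and no group there is without overexpression. No allele, treatment, age or time point is named for any group, and neither the cells in which the vector is active nor the number of mice behind a library is given in the sources used here. Tests therefore rest on how far these libraries vary, some of which may be technical. The gates showed in the sorted libraries: Mrc1, the gene of the mannose receptor, averaged 3777 ± 279 CPM (counts scaled to the library size) in MRC1+ and 1615 ± 193 CPM in CD11c+ TAMs, and Itgax, which encodes CD11c, averaged 102 ± 22.1 and 988 ± 56.2 CPM (SD, n = 3 each). Adgre1, the gene of F4/80, averaged 1115 ± 104 CPM in MRC1+ and 641 ± 112 CPM in CD11c+ TAMs.

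The activating receptors carry no activation motif of their own and reach the cell surface with the Fcer1g chain, whose activation motif (ITAM) is phosphorylated by Src-family kinases and recruits the kinase Syk. Fcgr2b carries an inhibitory motif (ITIM) in its own tail, which recruits the phosphatase SHIP1 and opposes the activating receptors on the same cell. The balance of both arms sets the threshold for phagocytosis and cytokine release by antibody-bound macrophages, including those in tumours. Fcgrt works inside the cell, where it binds IgG and albumin in acid endosomes and returns them to the surface.

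Sequences before the RefSeq starts of the activating receptors and Fcrls are shown because each holds a purine-rich word of the kind bound by PU.1, the transcription factor that defines the macrophage lineage. The windows are the 200 bases before the RefSeq transcript start (GRCm38.p6), and capitals mark the motif matches found.
Fcgr1: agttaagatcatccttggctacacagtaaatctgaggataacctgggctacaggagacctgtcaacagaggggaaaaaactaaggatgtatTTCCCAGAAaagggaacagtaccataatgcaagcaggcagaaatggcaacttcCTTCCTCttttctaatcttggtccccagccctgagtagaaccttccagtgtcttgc
Fcgr3: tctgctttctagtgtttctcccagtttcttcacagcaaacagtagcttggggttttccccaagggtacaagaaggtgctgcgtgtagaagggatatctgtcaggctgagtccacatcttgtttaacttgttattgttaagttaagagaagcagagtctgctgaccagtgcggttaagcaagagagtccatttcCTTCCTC
Fcgr4: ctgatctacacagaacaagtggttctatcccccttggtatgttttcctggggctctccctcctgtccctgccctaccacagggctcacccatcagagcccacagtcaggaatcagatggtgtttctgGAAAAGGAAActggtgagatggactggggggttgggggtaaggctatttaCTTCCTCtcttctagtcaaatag
Fcrls: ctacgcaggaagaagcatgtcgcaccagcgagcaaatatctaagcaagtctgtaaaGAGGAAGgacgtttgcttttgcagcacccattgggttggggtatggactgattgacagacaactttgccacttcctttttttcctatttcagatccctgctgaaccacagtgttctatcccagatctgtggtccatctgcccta
These windows lie at chr3:96293970-96294169 (minus strand) for Fcgr1, chr1:171059404-171059603 (minus strand) for Fcgr3, chr1:171018726-171018925 (plus strand) for Fcgr4 and chr3:87263525-87263724 (minus strand) for Fcrls. The PU.1-type word GAGGAAG, searched on both strands, was in the windows of 4 of the 7 genes and in 8.66% of 27025 promoters of the same length. It ended 1 base before the start in Fcgr3, 17 bases before it in Fcgr4, 50 in Fcgr1 and 138 in Fcrls. An interferon-gamma-type word (GAS, TTCNNNGAA) was in the Fcgr1 window and in 5.62% of promoters. An interferon-type word (ISRE-type, the first run of capitals in that window) was in the Fcgr4 window and in 2.33% of promoters, and the AP-1 word TGANTCA was in none of the 7 windows and in 5.55% of promoters. A match describes the letters of the window and does not show binding.

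Of the 7 genes, Fcgr3, Fcgr4, Fcer1g and Fcgr2b sit on 1 stretch of chromosome 1 in the GENCODE M21 annotation (build GRCm38, while the reads were counted on mm9). Fcgr2b (ENSMUSG00000026656) spans chr1:170958617-170976547, Fcgr4 (ENSMUSG00000059089) chr1:171018920-171029761, Fcgr3 (ENSMUSG00000059498) chr1:171051174-171064935 and Fcer1g (ENSMUSG00000058715) chr1:171229572-171234365. Fcgr1 (ENSMUSG00000015947) spans chr3:96282909-96293969, Fcrls (ENSMUSG00000015852) chr3:87250758-87263738 and Fcgrt (ENSMUSG00000003420) chr7:45092990-45103851. Fcgr2b overlaps the antisense gene Gm38204 and Fcgrt the antisense gene Gm45669, and since the use of strand in counting is not given, reads of these pairs cannot be told apart. The GENCODE starts of Fcgr3 and Fcrls lie upstream of the RefSeq starts used above, so their 200-base windows fall inside the GENCODE gene. For Fcgr4 the GENCODE start lies slightly upstream as well, so only the last bases of its window fall inside the gene. Fcgr3 and Fcgr2b share 166 stretches of 50 bases, 10.2% of those of Fcgr3, so reads there may have been lost or split between both genes.

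Between MRC1+ and CD11c+ TAMs the Fc receptor genes moved in opposite directions. Fcgrt and Fcrls were more than 3-fold higher in MRC1+ TAMs, while Fcgr4, Fcer1g and Fcgr2b were lower there, with log2 fold changes of -0.68 to -0.58, and neither Fcgr1 nor Fcgr3 passed the test. With edgeR's quasi-likelihood test at an adjusted p below 0.05, 2 of the 7 genes were higher in MRC1+ TAMs, against 7.02% of the 15622 genes tested, and 3 were lower, against 9.81%. In either direction 5 of 7 were called, against 16.8% of all genes tested. For 5 of 7 every library of one group lay apart from all of the other, against 38.3% of all genes tested (18.7% higher and 19.6% lower in MRC1+ TAMs). Leaving out 1 library at a time gave 3 to 6 called genes of the 7. In bulk libraries, fewer cells of a type and less RNA per cell cannot be told apart.

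**Figure D1:**
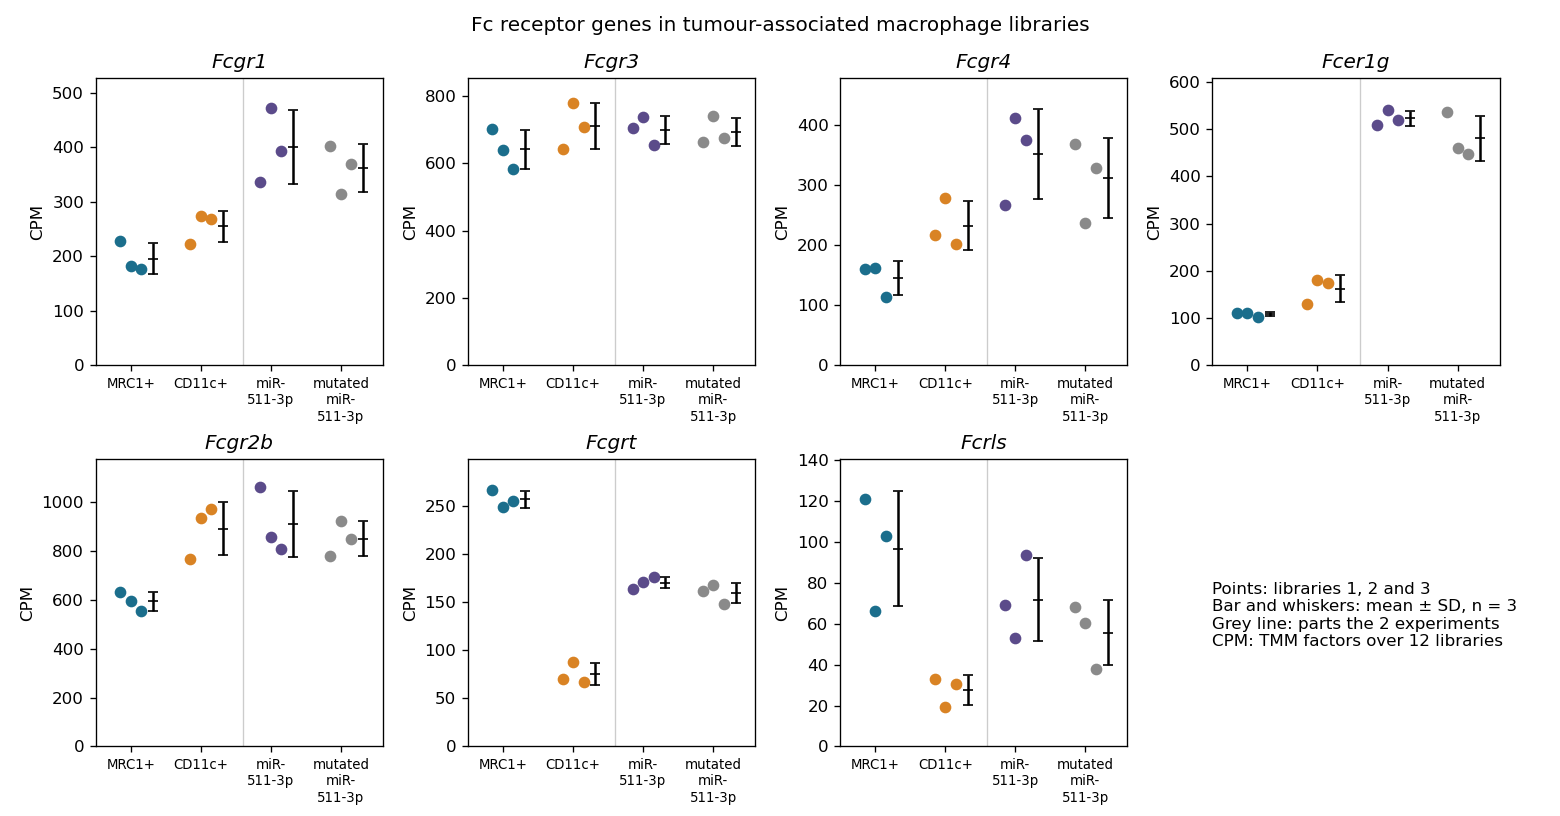
CPM of each Fc receptor gene (vertical axis, from 0, scaled over all 12 libraries) in the 4 groups, with points for libraries 1, 2 and 3 and bars for the mean ± SD. Fcgrt lay between 249 and 266 CPM in MRC1+ and between 67.5 and 88.3 CPM in CD11c+ TAMs, and Fcer1g lay between 447 and 540 CPM in the overexpression libraries.

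Fcgr4 encodes a receptor for IgG2a and IgG2b complexes that in mouse blood is most abundant on patrolling monocytes. It had 168, 170 and 119 CPM in the MRC1+ libraries, against 227, 291 and 211 CPM in the CD11c+ libraries. Every MRC1+ library was below every CD11c+ library, and the means were 152 ± 29.1 and 243 ± 42.5 CPM (SD, n = 3 each). The log2 fold change, MRC1+ over CD11c+, was -0.68 ± 0.17 (SE), with an edgeR adjusted p of 0.0302. Without single libraries the adjusted p was 0.0607 (MRC1+ number 1), 0.0523 (MRC1+ number 2), 0.0686 (MRC1+ number 3) and 0.0847 (CD11c+ number 2), above the threshold in each case, with the direction kept.

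Fcgr1 encodes the high-affinity receptor, which binds single IgG2a molecules. Its level was 239, 191 and 185 CPM in MRC1+ TAMs, against 233, 287 and 281 CPM in CD11c+ TAMs. The first library of each group overlapped the other group, and the means were 205 ± 29.2 and 267 ± 29.8 CPM. The difference, -0.38 ± 0.13 on the log2 scale, missed the threshold in edgeR (adjusted p = 0.0729). It passed with DESeq2 (0.0463), with no filter on low counts (0.0252), without the first MRC1+ library (0.0381) and without the first CD11c+ library (0.0143).

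Fcgr3 encodes the low-affinity receptor for immune complexes of several IgG classes. It had 733, 666 and 610 CPM in MRC1+ TAMs, against 669, 813 and 739 CPM in CD11c+ TAMs. The groups overlapped, and the log2 fold change of -0.14 ± 0.11 missed the threshold in edgeR (adjusted p = 0.407) and in all 14 alternatives (0.164 to 0.743).

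Fcer1g encodes the chain through which the activating receptors signal and on which their surface level depends. It had 116, 116 and 108 CPM in MRC1+ TAMs, against 135, 190 and 183 CPM in CD11c+ TAMs. The MRC1+ libraries lay within a narrow range below all CD11c+ libraries, with means of 113 ± 4.67 and 169 ± 29.7 CPM. The MRC1+ TAMs were lower, with a log2 fold change of -0.58 ± 0.13 (edgeR adjusted p = 0.0167). This call was lost without the first (0.0526), the second (0.0515) or the third (0.0655) MRC1+ library and without the second CD11c+ library (0.0634), and the adjusted p was 0.00023 without the first CD11c+ library.

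Fcgr2b, the inhibitory receptor, had 660, 621 and 581 CPM in MRC1+ TAMs, against 801, 975 and 1016 CPM in CD11c+ TAMs. The groups did not overlap, with means of 620 ± 39.4 and 931 ± 114 CPM. The gene fell in MRC1+ TAMs, with a log2 fold change of -0.59 ± 0.12 (edgeR adjusted p = 0.01), and the call held in all 14 alternatives, with an adjusted p of at most 0.0498.

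Fcgrt, the gene of the neonatal Fc receptor heavy chain, had 278, 260 and 267 CPM in MRC1+ TAMs, against 73.0, 92.2 and 70.5 CPM in CD11c+ TAMs. The lowest MRC1+ library was far above the highest CD11c+ library, and the means were 269 ± 9.28 and 78.6 ± 11.9 CPM. The gene was 3.41-fold higher in MRC1+ TAMs, a log2 fold change of 1.77 ± 0.12 (edgeR adjusted p = 3.96e-05), and ranked 47 by p among the 15622 genes tested. The adjusted p was at most 0.000675 in the 14 alternatives. B2m, the light chain that Fcgrt shares with class I MHC molecules, averaged 1119 ± 86.5 CPM in MRC1+ and 1421 ± 161 CPM in CD11c+ TAMs. Its log2 fold change of -0.34 ± 0.12 missed the threshold (adjusted p = 0.0771) and passed it without the first CD11c+ library (0.0129), with DESeq2 (0.0352), with no filter (0.0406) and in the fit of all 12 libraries (0.0259).

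Fcrls encodes a receptor of the mouse that is related to the Fc receptors in sequence and is known as a marker of microglia, the macrophages of the brain. It had 127, 69.2 and 108 CPM in MRC1+ TAMs, against 34.4, 20.3 and 31.7 CPM in CD11c+ TAMs. The second library was lowest in both groups, and the groups did not overlap. The means were 101 ± 29.3 and 28.8 ± 7.49 CPM. Fcrls was 3.52-fold higher in MRC1+ TAMs, a log2 fold change of 1.82 ± 0.28 (edgeR adjusted p = 0.00764), and the adjusted p was at most 0.0479 in the 14 alternatives.

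**Figure D2:**
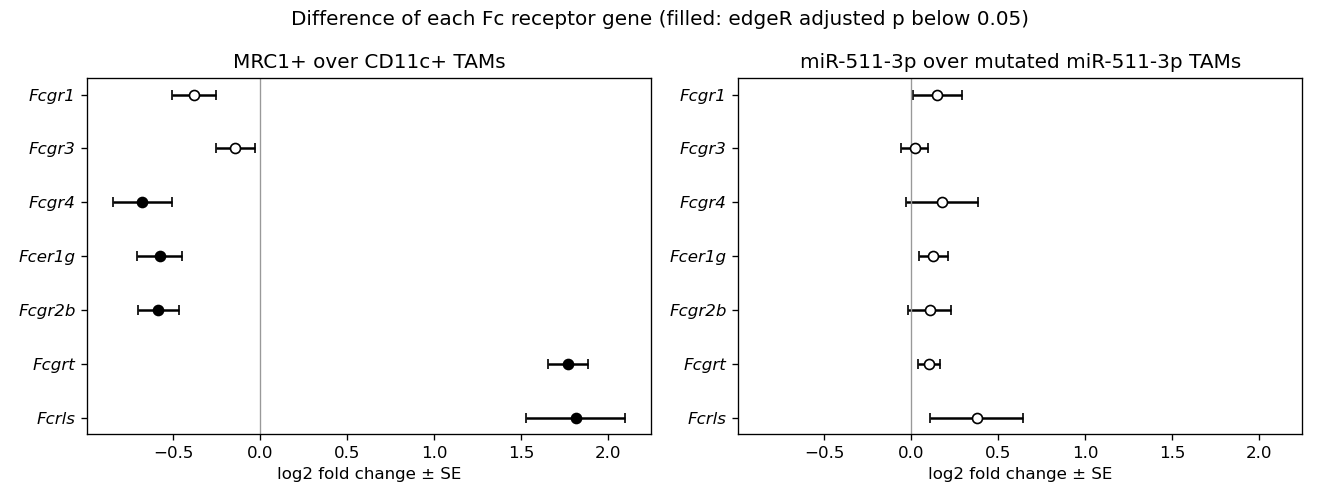
Log2 fold change ± SE of each Fc receptor gene (horizontal axis), MRC1+ over CD11c+ TAMs at left and miR-511-3p over mutated miR-511-3p TAMs at right, with filled points for an edgeR adjusted p below 0.05. At left Fcgrt and Fcrls stand at 1.77 and 1.82 and Fcgr4, Fcgr2b and Fcer1g between -0.68 and -0.58, while all points at right are open.

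Compared per kilobase of annotated exon, Fcgr3 made up most of the activating receptor signal in sorted TAMs. Its share was 67.4 ± 1.70% of the summed Fcgr1, Fcgr3 and Fcgr4 CPM per kilobase in MRC1+ TAMs and 60.6 ± 1.45% in CD11c+ TAMs (SD, n = 3 each). Fcgr4 took 19.7 ± 2.21% in MRC1+ and 25.7 ± 2.38% in CD11c+ TAMs, and Fcgr1 took 12.9 ± 0.882% and 13.7 ± 0.963%. The Fcgr3 and the Fcgr4 shares did not overlap between the groups, and the Fcgr1 shares did. Shares of a library add up to its whole, so these are not separate results, and Fcgr3 itself missed the test above. These shares were not tested, and the uncertain reads between Fcgr3 and Fcgr2b bear on them.

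The ratio of the inhibitory Fcgr2b to the activating receptors was lower in MRC1+ TAMs. In reads it was 0.579, 0.604 and 0.635 in the MRC1+ libraries, against 0.710, 0.701 and 0.825 in the CD11c+ libraries, without overlap, and averaged 0.606 ± 0.0281 and 0.745 ± 0.0693. Per kilobase the ratio averaged 0.267 ± 0.0132 in MRC1+ and 0.326 ± 0.0340 in CD11c+ TAMs. The ratio of Fcer1g to the activating receptors per kilobase was 0.249 ± 0.0184 in MRC1+ and 0.301 ± 0.0348 in CD11c+ TAMs, with libraries that overlapped. The ratios are given as descriptions, since both terms enter the tests above.

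**Figure D3:**
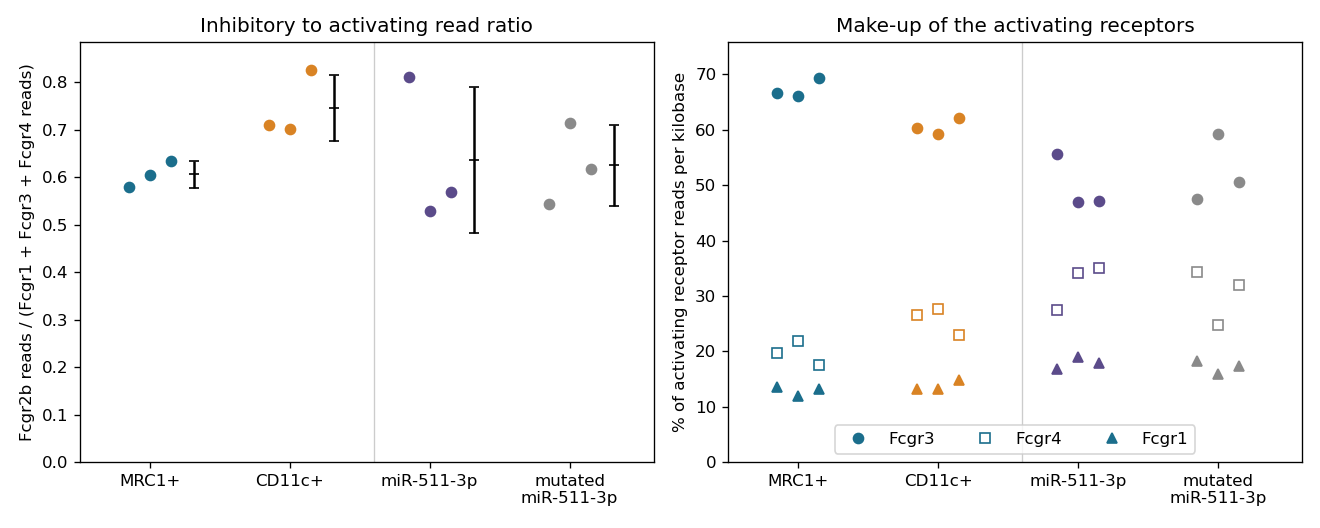
Left, reads of Fcgr2b divided by the summed reads of Fcgr1, Fcgr3 and Fcgr4 in each library, with the mean ± SD of 3 libraries; right, the share of each activating receptor in their summed CPM per kilobase (percent), 1 symbol per library. The ratio lay between 0.579 and 0.635 in MRC1+ and between 0.701 and 0.825 in CD11c+ TAMs, and ranged from 0.530 to 0.812 among the miR-511-3p libraries.

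The 2 groups also differed in markers of other myeloid cells. Of all 15622 genes tested, 9.81% were lower and 7.02% higher in MRC1+ TAMs, the shares to set beside each count below. The marker lists were chosen with earlier results of these data known, so a count above its share is a description only. A single call in a list of 5 to 7 markers is not read as a difference. Of 6 tested markers of recruited monocytes 6 were lower in MRC1+ TAMs, with summed levels of 479 to 636 CPM in MRC1+ and 1881 to 2390 CPM in CD11c+ libraries. Of 8 dendritic cell markers 7 were lower (105 to 151 CPM in MRC1+ and 1163 to 1393 CPM in CD11c+ TAMs), a list that includes the sort gene Itgax. Of 7 patrolling monocyte markers 5 were lower (329 to 385 CPM and 625 to 1043 CPM). Of 8 macrophage markers 2 were higher, Adgre1 and Mertk, and none was lower, with summed levels that overlapped (7595 to 9785 CPM and 7259 to 10314 CPM). Neutrophil markers gave 1 lower of 7 (81.9 to 107 CPM and 94.1 to 163 CPM) and NK cell markers 2 lower of 5 (5.47 to 11.6 CPM and 11.96 to 24.3 CPM). Markers of B and plasma cells (8.49 to 12.3 CPM and 6.91 to 19.1 CPM) and of fibroblasts (617 to 868 CPM and 270 to 1190 CPM) gave no call. Of mast cell and eosinophil markers 1 of 6 was lower (47.0 to 59.6 CPM and 53.7 to 121 CPM), of endothelial markers 1 was higher and 3 lower of 5 (39.4 to 49.5 CPM and 91.6 to 138 CPM), and of epithelial and carcinoma markers 1 was higher and 2 lower of 6 (150 to 219 CPM and 124 to 178 CPM). The defining markers Ly6g of neutrophils and Cd79a and Pax5 of B cells did not pass the filter, and no marker was at 0 in all libraries. The markers of recruited and patrolling monocytes and of dendritic cells differed in the direction of Fcgr4, Fcer1g and Fcgr2b, and their part in the result was not tested.

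Around the receptors, most genes of the pathway that passed the test were lower in MRC1+ TAMs. The median log2 fold change of all genes tested was 0.01, and 9.81% of them were called lower and 7.02% higher. Pathway lists too were chosen with earlier results of these data known, so their counts describe the listed genes only. Of 22 genes of ITAM signalling, all tested, 11 were lower and 2 higher, with a median of -0.37. Leaving out 1 library at a time gave 7 to 16 lower and 1 to 3 higher. Plcg2, a phospholipase that raises calcium after receptor binding, averaged 102 ± 0.482 CPM in MRC1+ and 255 ± 36.5 CPM in CD11c+ TAMs (log2 fold change -1.33 ± 0.11, edgeR adjusted p = 0.00014). The protein kinase Prkcd differed by -0.90 ± 0.10 (0.000592), and Fgr, a kinase of the Src family, by -1.33 ± 0.17 (0.00157). The 2 higher genes, named after their values were seen, were the kinase Src (0.69 ± 0.13, 0.00684) and the adaptor Blnk (0.57 ± 0.12, 0.0111). Src lost its call in the fit of all 12 libraries (0.0617) and Blnk without the third MRC1+ library (0.0623).

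Genes of the inhibitory arm fell as well where they passed. The median of the 9 tested was -0.29, and leaving out 1 library at a time gave 3 to 6 lower. With all libraries none was higher and 3 were lower, against 9.81% of all genes tested. These were the kinase Csk, which restrains Src-family kinases (-0.76 ± 0.11, edgeR adjusted p = 0.00213), the ubiquitin ligase Cbl (-0.48 ± 0.08, 0.00374) and the phosphatase Ptpn6 (-0.68 ± 0.12, 0.0064). Inpp5d, which encodes the SHIP1 phosphatase recruited by Fcgr2b and was named after its value was seen, averaged 373 ± 23.6 CPM in MRC1+ and 442 ± 43.7 CPM in CD11c+ TAMs, a difference that missed the threshold (-0.25 ± 0.10, adjusted p = 0.136).

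Genes of the phagocytic cup, which remodel actin around a bound particle, gave 8 lower and none higher of 15 tested. Of all genes tested, 9.81% were lower. The list median was -0.38. Leaving out 1 library at a time gave 4 to 12 lower. The lowest p values belonged to the GTPase Rac2 (-0.85 ± 0.11, edgeR adjusted p = 0.00145), the actin regulator Coro1a (-1.22 ± 0.17, 0.00166), the WASP partner Wipf1 (-0.43 ± 0.08, 0.00645) and Was, which encodes WASP (-0.54 ± 0.10, 0.00897). All 4 kept their call in the 14 alternatives.

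A list of other receptors that use Fcer1g also holds the inhibitory receptor Pirb with ITIMs of its own. The list median was -0.68. Of 8 tested none was higher and 3 were lower, against 9.81% of all genes tested. They were Oscar, a collagen receptor (-1.61 ± 0.31, edgeR adjusted p = 0.0101), the paired immunoglobulin-like receptor Pira2 (-0.68 ± 0.14, 0.0125) and Clec4n, the C-type lectin Dectin-2 (-0.68 ± 0.18, 0.0321). Leaving out 1 library at a time gave 1 to 4 lower. Clec4n lost its call in 6 of 14 alternatives, among them the fit that blocked on replicate number (0.074). Pira2 lost its call in 2 alternatives and Oscar in 1. Tyrobp, an ITAM adaptor of related receptors, averaged 279 ± 23.2 CPM in MRC1+ and 398 ± 75.7 CPM in CD11c+ TAMs (-0.51 ± 0.14, adjusted p = 0.0371), a call lost with the block (0.0599) and without any library but the first CD11c+ one (0.0639 to 0.128).

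Among 12 other Fc receptors and relatives, 8 passed the filter, with a median of -0.52. Of these none was higher and 3 were lower, against 9.81% of all genes tested. Fcrl5, a member of the family found on B cells, averaged 0.663 ± 0.0731 CPM in MRC1+ and 5.59 ± 0.697 CPM in CD11c+ TAMs (-3.07 ± 0.23, edgeR adjusted p = 8.18e-05). The intracellular Fcrlb averaged 24.8 ± 0.408 and 54.1 ± 13.6 CPM (-1.12 ± 0.17, 0.00311). Fcrla differed by -1.33 ± 0.37 (0.0414) and lost its call with the block (0.075) and in 5 other alternatives.

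Of 8 immunoglobulin chains 5 were tested, while 16.8% of all genes tested were called in either direction, and only Ighm was called. It encodes the heavy chain of IgM, which these receptors do not bind, and was lower at 11.6 ± 0.945 CPM in MRC1+ and 17.0 ± 3.62 CPM in CD11c+ TAMs (-0.55 ± 0.16, edgeR adjusted p = 0.0499). It lost that call in 9 of 14 alternatives, while Ighg2b gained one with the block (0.0356).

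**Figure D4:**
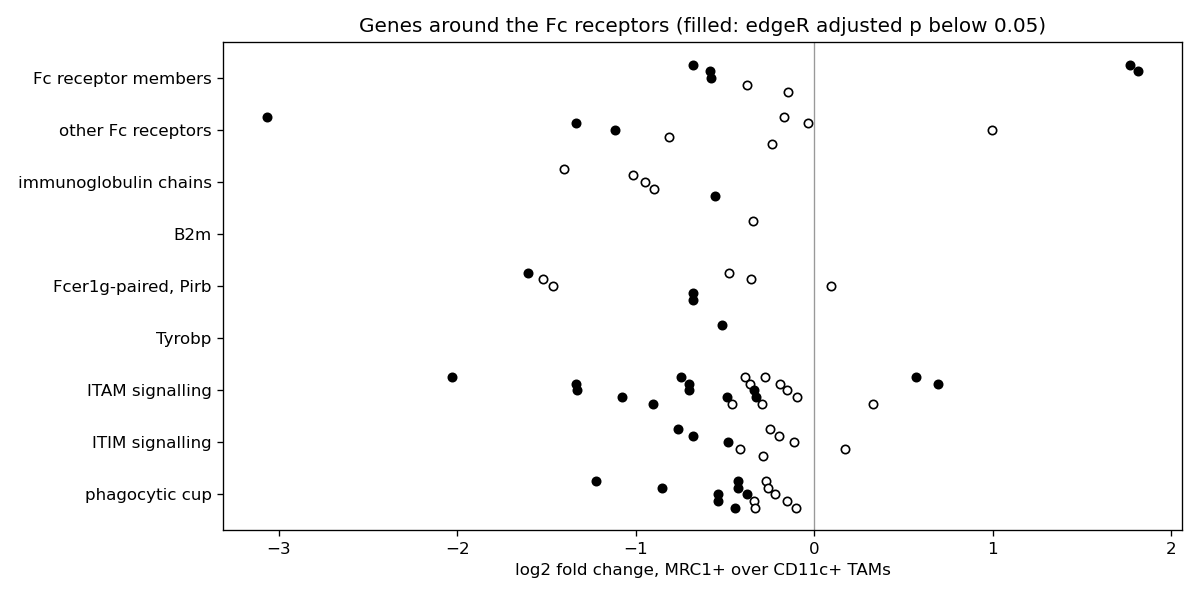
Log2 fold change of MRC1+ over CD11c+ TAMs (horizontal axis) for the 7 Fc receptor genes and the pathway lists, 1 point per gene tested, filled where the edgeR adjusted p was below 0.05. Fcgrt and Fcrls stand alone near 1.8 among the plotted genes, and the filled points of the lists lie below 0 except Src and Blnk in ITAM signalling.

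The overexpression experiment asked what miR-511-3p changes in TAMs. Its mature sequence, from RefSeq (GRCm38.p6, chr2:14261051-14261072, plus strand), is shown with the seed, bases 2 to 8, in capitals, followed by the only sites for it in the longest 3′ UTR (GENCODE M21, GRCm38) of each Fc receptor gene, with the site in capitals. The last letter of a site is an A that lies opposite base 1 and does not pair, and the letters before it pair with the seed.
miR-511-3p: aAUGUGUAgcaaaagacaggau
Fcgr3: tgttatccagTACACATAatgccctggg
Fcgr2b: tctgcacaccACACATAggcagcccac
Fcgr3 has 1 site TACACATA, whose first 7 letters pair with bases 2 to 8, in a 3′ UTR of 493 bases. Fcgr2b has 1 site ACACATA, which pairs with bases 2 to 7 and leaves base 8 unpaired, in 2397 bases, and the other 5 genes have none. A site of either kind, or TACACAT, is in the longest 3′ UTR of 4083 of 20937 genes, or 19.5%, and describes letters only.

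Under miR-511-3p none of the 7 Fc receptor genes was called by edgeR, against 0% of the 14054 genes tested. None had an unadjusted p below 0.05 in edgeR, against 318 of the 14054 genes tested, too few to read this as a result about the 7. DESeq2 called none of the 7 and 1 gene in all. Every gene overlapped between the groups, while 6.38% of genes tested did not (2.79% higher and 3.59% lower with miR-511-3p). Fcgr3, which holds the site that pairs with the whole seed, had 680, 707 and 622 CPM with miR-511-3p, against 630, 701 and 651 CPM with its mutated form. The log2 fold change was 0.02 ± 0.08 (unadjusted p = 0.801 in edgeR). Fcgr2b had 1028, 825 and 768 CPM with miR-511-3p, against 740, 877 and 819 CPM with the mutated form, a log2 fold change of 0.11 ± 0.12 that rested on the first miR-511-3p library and was -0.03 without it.

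Fcgrt had 158, 164 and 167 CPM with miR-511-3p, against 154, 160 and 143 CPM with the mutated form, with a log2 fold change of 0.10 ± 0.06 (unadjusted p = 0.147 in edgeR). Fcrls had 66.8, 50.8 and 88.8 CPM against 64.8, 57.5 and 36.5 CPM, with 0.38 ± 0.27 (0.207). Fcer1g had 492, 519 and 494 CPM against 509, 436 and 432 CPM, with 0.13 ± 0.08 (0.163). All 7 fitted differences were above 0, each with overlapping libraries, and those of Fcgr2b and Fcgr3 turned below 0 without single libraries. The median log2 fold change of all genes tested was 0.0027, and the shared sign of the 7 was not tested.

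Fcgr1 and Fcgr4 varied together among these libraries. Fcgr1 had 326, 453 and 373 CPM with miR-511-3p, against 383, 299 and 357 CPM with the mutated form (log2 fold change 0.15 ± 0.14). Fcgr4 had 259, 396 and 356 CPM with miR-511-3p, against 350, 226 and 318 CPM with the mutated form (0.18 ± 0.21). Both genes were lowest in the first miR-511-3p and the second mutated library. The same libraries had the highest ratio of Fcgr2b to activating reads of their groups, 0.812 and 0.715, while the others lay between 0.530 and 0.617. Reads of Fcgr1 and Fcgr4 are part of the activating reads, so the high ratios are not a separate observation. The ratio averaged 0.637 ± 0.153 with miR-511-3p and 0.625 ± 0.0861 with the mutated form, or 0.281 ± 0.0686 and 0.276 ± 0.0392 per kilobase.

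None of the pathway genes was called under miR-511-3p. The list medians lay between -0.06 (B2m) and 0.07 (other Fc receptors), except that of the immunoglobulin chains, which was -1.82 over 3 tested chains. Igkc, the kappa light chain and the list gene of lowest p, averaged 0.251 ± 0.313 CPM with miR-511-3p and 5.01 ± 7.43 CPM with the mutated form (unadjusted p = 0.0373 in edgeR). Summed markers of patrolling monocytes lay at 920 to 1116 CPM with miR-511-3p and 980 to 1138 CPM with the mutated form. Those of fibroblasts lay at 83.6 to 255 and 158 to 639 CPM, and no marker of any list was called. Single markers did not overlap between the groups, as 6.38% of all genes tested did not. Ace, of the patrolling monocyte list, averaged 1.22 ± 0.340 CPM with miR-511-3p and 3.73 ± 1.27 CPM with the mutated form (unadjusted p = 0.00215 in edgeR). Pdgfrb and Krt8 were also lower with miR-511-3p without overlap. Whether the groups differ in cell content was not tested.

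Across the 4 groups the genes were ranked on the CPM scale set over all 12 libraries, a description, since the experiments differ in gate and vector. Fcgrt was lowest in CD11c+ TAMs (67.5 to 88.3 CPM), higher in the mutated (148 to 168) and miR-511-3p libraries (164 to 176), which overlapped, and highest in MRC1+ TAMs (249 to 266). Fcrls had the same order, with overlap between the mutated and miR-511-3p libraries and between miR-511-3p and MRC1+ libraries. For Fcer1g the order was MRC1+ (103 to 111 CPM), CD11c+ (130 to 182), mutated (447 to 535) and miR-511-3p libraries (508 to 540), of which only the last pair overlapped. Fcgr1 and Fcgr4 shared this order. For Fcgr1 the CD11c+ and mutated libraries did not overlap and the other neighbours did, and for Fcgr4 the MRC1+ and CD11c+ libraries did not overlap and the other neighbours did. Fcgr2b was lowest in MRC1+ TAMs (555 to 630 CPM), and its other groups overlapped. The groups of Fcgr3 overlapped throughout, between 583 and 778 CPM, and for Fcgr3 and Fcgr2b the order changed without TMM scaling.

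Between genes, CPM per kilobase placed Fcgr3 highest in both sorted groups, at 393 ± 36.0 in MRC1+ and 435 ± 42.1 in CD11c+ TAMs, and Fcrls lowest, at 41.4 ± 11.96 and 11.8 ± 3.08. Fcgr2b, Fcer1g and Fcgrt lay close together in MRC1+ TAMs, at 156 ± 9.94, 145 ± 6.09 and 144 ± 4.85. In CD11c+ TAMs Fcgr2b and Fcer1g were at 234 ± 28.6 and 217 ± 38.0, and Fcgrt at 42.2 ± 6.36. In the overexpression experiment Fcer1g was highest, at 699 ± 21.6 with miR-511-3p and 642 ± 64.3 with the mutated form, above Fcgr3 at 429 ± 25.4 and 425 ± 25.0.

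Over the 12 libraries, with each gene centred within its experiment, Fcgr1 and Fcgr4 had a Pearson correlation of 0.87, Fcer1g and Fcgr2b of 0.81, and Fcgrt and Fcrls of 0.85, while Fcgr2b and Fcgrt had -0.82. The points share their groups, so these values can repeat the group differences and carry no test. Fcgr1 and Fcgr4 also varied together between libraries within the overexpression groups, as given above. Among 9452 genes with a mean of at least 10 CPM, the 3 most like Fcgrt were Wwp1 (0.99), Gas6 (0.99) and Stard8 (0.98). Those most like Fcer1g were Myd88, Tpd52 and Cyth4 (0.98 each), and those most like Fcgr2b were Gm13503 (0.97), Fcrlb (0.97) and Ccr1 (0.95). For Fcgr4 they were Trim30a (0.96), Atp8a1 (0.96) and Prpf38a (0.94), and for Fcgr1 Trafd1 (0.95), Fpr2 (0.93) and Sf3a3 (0.92). Fcrls was most like Idh2 (0.94), Dennd2c (0.93) and Mdm1 (0.91), and Fcgr3 most like Bet1l, Ttll1 and Cd300ld (0.91 each).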

How the data were processed

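The deposited files hold, for every library, raw counts of reads by Ensembl gene identifier. Per the submitters' processing notes, the tools were Bowtie, TopHat 1.2.0, SAMtools 0.1.12a and HTSeq on mm9 (NCBIM37). The sources used here give neither counting mode nor strand. Entries that name no gene were kept out: reads over no gene were 19.7% to 26.6% of sorted and 7.64% to 10.4% of overexpression libraries, and reads aligned to several places 15.5% to 20.1% and 12.8% to 13.3%. No pair of libraries within a group agreed within sampling noise (chi-square per degree of freedom of at least 9.18).

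Each comparison used edgeR 4.0.16 (R 4.3.3) on its 6 libraries, with TMM scaling, filterByExpr, robust quasi-likelihood fits and Benjamini-Hochberg adjustment over all genes tested at 0.05. CPM used the same factors, except levels across groups, which used factors over 12 libraries and merged exons of coding transcripts (GENCODE M21). The SE is the log2 fold change over the root of F. Alternatives were other scalings, filters, DESeq2 1.42.0, a fit of 12 libraries, the replicate number as a block, each library left out and, chosen after seeing the data, a fit without robust estimation. Same-numbered libraries deviated together, which was taken as a sign of pairing. Correlations were 0.104, 0.337 and 0.250 in sorted and 0.147, 0.258 and 0.462 in overexpression groups. Only the alternative with the block used this pairing, and the main fits were unpaired. The first miR-511-3p library correlated more with the second mutated library (0.166). The pairing comes from the data, as the labels state none.

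The receptor genes, pathway lists and marker lists were chosen with earlier results of these data known. Counts in them are therefore descriptions, and the shares of all genes beside them give no test of an excess. Named were the 7 genes, up to 4 called members of lowest p per pathway list (or the gene of lowest p) and the 3 genes most like each receptor gene. The edgeR step was tested on simulated data. Protein sequences were not used here, and 1 gene that this rule names is not reported here.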

Additional observations from a re-analysis of the deposited data

How the results depend on the processing

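Of 98 values of the 7 Fc receptor genes under alternatives in MRC1+ against CD11c+ TAMs, 86 kept their call and direction, 8 lost a call, 4 gained one and none reversed. Under miR-511-3p 95 of 98 were kept, and 3 changed sign: Fcgr2b at -0.0269 without the first miR-511-3p library, and Fcgr3 at -0.0201 without the second miR-511-3p library and at -0.0167 without the first mutated library. Over the libraries left out, Fcgr3 ranged from -0.0201 to 0.0684 and Fcgr2b from -0.0269 to 0.187. Leaving out 1 library left 3 to 6 receptor genes called of 7 (5 with all libraries) and 1353 to 4731 genes in all (2629 with all libraries). The lowest of these, 1353, 1354 and 1545, came without the third MRC1+, the second MRC1+ and the second CD11c+ library, each with 3 receptor genes called, and 4731 without the first CD11c+ library. Upper-quartile scaling split the calls into 1358 higher and 1329 lower, against 1097 and 1532 with TMM, and leaving out the first CD11c+ library into 2374 and 2357. Under miR-511-3p no gene was called with all libraries. With no filter, with DESeq2 and in the fit of all 12 libraries 1 gene passed, Mir511 (log2 fold change 3.56, 3.59 and 3.55), and with the replicate block 1, Hspg2 (-1.39, adjusted p = 0.0225). The block called 2712 genes between MRC1+ and CD11c+ TAMs and changed no call of a receptor gene. In pathway lists it ended the calls of Fcrla, Clec4n, Tyrobp and Btk (0.0541) and added Ighg2b, Clec4e (0.00974), Vav2 (0.0352) and Pik3r1 (0.0251). The ratio of Fcgr2b to the activating receptors depends on the unit: per kilobase it was 0.267, 0.326, 0.281 and 0.276 in MRC1+, CD11c+, miR-511-3p and mutated TAMs, against 0.606, 0.745, 0.637 and 0.625 in reads. Without 1 library the read ratio ranged over 0.592 to 0.620, 0.706 to 0.768, 0.549 to 0.690 and 0.580 to 0.666. Where a call was lost or a sign changed the cause was not tested. Among the receptor genes Fcrls had the fewest reads in both experiments. Its lowest read numbers were in the sorted CD11c+ libraries, where its level was also lowest. Fcrls kept its call between MRC1+ and CD11c+ TAMs in every alternative, and the part of depth was not tested.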

Other observations

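Fcer1g stood out between the experiments. It lay at 447 to 540 CPM in the overexpression libraries and at 103 to 182 CPM in the sorted libraries, on the scale set over 12 libraries, a log2 difference of 1.89 between the means, overexpression over sorted. Of 8860 genes compared, 143 (1.61%) differed by at least as much in that direction, and the median gene differed by 0.16. The difference was 0.76 for Fcgr1, 0.81 for Fcgr4, 0.25 for Fcgr2b, 0.04 for Fcgr3, -0.01 for Fcgrt and 0.04 for Fcrls, and 0.34 for Tyrobp, the related adaptor. Fcer1g is short, with 748 bases of annotated exon. Of 295 genes of up to 1 kb, 4 differed by at least as much, and the median of these short genes was 0.03. Reads over no gene were 19.7% to 26.6% of sorted and 7.64% to 10.4% of overexpression libraries. The gate, the vector and the experiment, with its library preparation, cannot be told apart here. Neither the difference nor the part of gene length in it was tested.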
